A study of Mus musculus with 8 samples.

Results

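RIG-I-like receptors and Toll-like receptors recognise microbial nucleic acids and other microbial products, and transcripts of 10 of these receptors and their adaptors were measured in mouse pancreatic islets given a STING agonist. The genes were Ddx58 (also called Rigi), Ifih1, Dhx58, Mavs, Tlr2, Tlr3, Tlr4, Tlr7, Myd88 and Ticam1. They were chosen by symbol, each matched 1 row among the 54532 Ensembl gene identifiers of the count files, and all 10 passed the filter on low counts that left 17055 genes to test. Pancreatic islets, which hold the insulin-secreting beta cells, came from wild-type mice or mice labelled STING KO (Sting-/- in the treatment protocol) aged 25 to 30 weeks, and had been picked by hand and kept in culture overnight. They were then held for 3 h with DMSO, the solvent, or with DMXAA at 50 µg/mL, a compound known to activate STING of the mouse. This gave 4 groups of 2 poly(A) RNA libraries: wild type with DMSO, wild type with DMXAA, KO-labelled with DMSO and KO-labelled with DMXAA. The labels do not describe the strain, the Sting allele or how many mice gave each library, so the p-values speak only for how far these libraries spread, and that spread may be technical.

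Library totals ran from 15624020 to 19601850 counts. The targeted gene, Sting1 (Tmem173 in the annotation), had 23 to 41 counts in the wild-type libraries and 19 to 48 in the libraries labelled KO, so its count does not set these libraries apart, and they are called KO-labelled below. The 8 beta cell markers were counted in every library, with sums of 162430 to 322820 CPM (counts scaled to the size of the library). Other cells were present as well. Macrophage markers, 14 genes, summed to 70.3 to 177 CPM, and the 12 acinar markers of exocrine tissue to 333 to 6250 CPM. In bulk RNA, fewer cells of a type and less RNA per cell cannot be told apart.

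The RIG-I-like receptors are cytosolic helicases that bind viral RNA. RIG-I (Ddx58) and MDA5 (Ifih1) signal through caspase recruitment domains to MAVS, an adaptor on the mitochondrial membrane, whereas LGP2 (Dhx58) lacks those domains and modulates the other receptors. Toll-like receptors sit in the plasma membrane (TLR2, TLR4) or in endosomes (TLR3, TLR7). TLR3 signals through TRIF (Ticam1), TLR2 and TLR7 through MYD88, and TLR4 through both. STING, the receptor activated here, responds to cyclic dinucleotides made when DNA is found in the cytosol. All of these routes can lead to type I interferon or NF-kB, and several of the RNA receptors are themselves known interferon-stimulated genes.

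Promoter sequences were examined because some of the 10 genes moved together. The RefSeq table held 300 bases, 250 before and 50 after a start site, for 7 of the 10 genes on build GRCm38.p6. Entries for Dhx58, Tlr4 and Tlr7 were not used here. Each window was searched on both strands for the core of the interferon-stimulated response element (GAAANNGAAA), for the shorter core bound by interferon regulatory factors (AANNGAAA, which every match of the former contains) and for the NF-kB consensus. Over 32851 promoters of the same length, the shares with a match were 3.44%, 23.9% and 4.51%. The windows of Tlr2, Mavs and Ticam1 are described below but not printed. Shown are the 3 called genes with a sequence (Ddx58, Ifih1 and Tlr3) and the adaptor Myd88, which was not called. They are written 5′ to 3′ on the gene's strand, with matches in capitals.
Ddx58, chr4:40239776-40240075, minus strand: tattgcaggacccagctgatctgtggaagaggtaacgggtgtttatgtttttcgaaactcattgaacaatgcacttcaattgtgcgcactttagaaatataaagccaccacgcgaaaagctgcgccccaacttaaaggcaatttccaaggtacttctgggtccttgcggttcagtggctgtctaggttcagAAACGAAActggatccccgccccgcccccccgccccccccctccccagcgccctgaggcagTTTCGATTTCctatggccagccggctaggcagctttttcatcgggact
Ifih1, chr2:62646206-62646505, minus strand: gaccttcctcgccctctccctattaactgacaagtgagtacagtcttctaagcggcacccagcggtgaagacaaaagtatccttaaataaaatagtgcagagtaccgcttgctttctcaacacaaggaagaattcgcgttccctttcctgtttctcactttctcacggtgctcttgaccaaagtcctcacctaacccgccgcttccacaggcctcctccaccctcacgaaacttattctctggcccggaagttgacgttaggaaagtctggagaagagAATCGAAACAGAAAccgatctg
Tlr3, chr8:45410331-45410630, minus strand: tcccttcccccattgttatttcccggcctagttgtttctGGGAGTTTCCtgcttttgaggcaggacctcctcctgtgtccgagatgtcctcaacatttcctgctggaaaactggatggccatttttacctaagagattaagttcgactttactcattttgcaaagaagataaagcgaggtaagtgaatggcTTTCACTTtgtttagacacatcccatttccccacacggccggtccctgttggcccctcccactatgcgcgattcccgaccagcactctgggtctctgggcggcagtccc
Myd88, chr9:119339969-119340268, minus strand: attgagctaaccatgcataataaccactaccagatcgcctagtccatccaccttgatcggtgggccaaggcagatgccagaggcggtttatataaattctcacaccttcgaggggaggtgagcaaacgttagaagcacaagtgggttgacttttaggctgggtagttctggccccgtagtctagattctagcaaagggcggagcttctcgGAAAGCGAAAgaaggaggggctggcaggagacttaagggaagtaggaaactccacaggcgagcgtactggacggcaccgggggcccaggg

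The longer core matched once each in Ddx58 (TTTCGATTTC, the reverse strand, from base 3 after the start), Ifih1 (GAAACAGAAA, from base 33) and Myd88 (GAAAGCGAAA, from base -40). The Tlr3 window held 1 shorter core and 1 NF-kB match. The Tlr2 window held 2 shorter cores and 4 overlapping or separate NF-kB matches, counted on both strands, and the Mavs and Ticam1 windows held no match to any of the 3 motifs. A match is a description of letters in 1 window per gene, not a bound site. The gene model begins upstream of the start used here by 159 bases for Tlr2, 700 for Tlr3 and 1393 for Myd88, and by 3 for Ddx58 and 19 for Ticam1.

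In wild-type islets DMXAA raised the 3 RIG-I-like receptors and Tlr3, while the adaptor genes Mavs and Ticam1 had log2 fold changes of -0.02 and 0.16. By edgeR's quasi-likelihood test, 4 of the 10 genes were higher and 0 lower at an adjusted p under 0.05, against 1.11% higher and 0.375% lower of all 17055 genes tested (1.48% in either direction). Both wild-type DMXAA libraries lay above both DMSO libraries for 5 of the 10 genes and below them for 0, and for all genes these shares were 22.5% and 23.9% (46.3% together). The median log2 fold change of the 10 genes was 0.53, and that of all genes was -0.000659. The genes had been chosen with earlier results of these data known, so this count describes them and is no test of the family.

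Ifih1, which encodes MDA5, the receptor for long double-stranded RNA, lies on mm10 chromosome 2 from 62595798 to 62646255 and was the member with the largest fold change. Wild-type libraries held 35.6 and 28.7 CPM under DMSO, and 159 and 172 CPM under DMXAA. KO-labelled libraries held 24.5 and 23.1 CPM under DMSO, and 32.6 and 25.2 CPM under DMXAA. Both wild-type DMXAA libraries thus stood far above the other 6. Group means in wild type were 32.2 ± 4.86 and 165 ± 9.13 CPM (SD, n = 2), a 5.14-fold rise (log2 fold change 2.36, SE 0.17, edgeR adjusted p = 3.44e-06).

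Dhx58 encodes LGP2 and lies on chromosome 11 from 100694884 to 100704271. Its level in wild type was 8.05 and 9.74 CPM under DMSO, and 27.1 and 28.5 CPM under DMXAA. In KO-labelled islets it was 5.80 and 6.002 CPM under DMSO, and 6.83 and 7.43 CPM under DMXAA. The wild-type groups did not overlap, and the difference amounted to 3.12-fold (log2 fold change 1.64, SE 0.19, edgeR adjusted p = 0.000255). Reads of its antisense neighbour Dhx58os, which shares 141 exon bases with it, numbered 0 to 17 per library, and the strand setting of the counting is not known here.

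Ddx58, the gene of RIG-I, which detects RNA ends typical of viruses, lies on chromosome 4 from 40203773 to 40239828. Wild type had 54.6 and 46.9 CPM under DMSO, and 86.7 and 96.7 CPM under DMXAA. KO-labelled islets had 39.8 and 43.9 CPM under DMSO, and 47.9 and 38.2 CPM under DMXAA. Both wild-type DMXAA libraries exceeded the other 6. The rise in wild type was 1.81-fold (log2 fold change 0.85, SE 0.16, edgeR adjusted p = 0.0128), the smallest of the 4 called. The call was lost without wild-type DMXAA replicate 1 (edgeR adjusted p = 0.0623) or replicate 2 (edgeR adjusted p = 0.185).

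**Figure D1:**
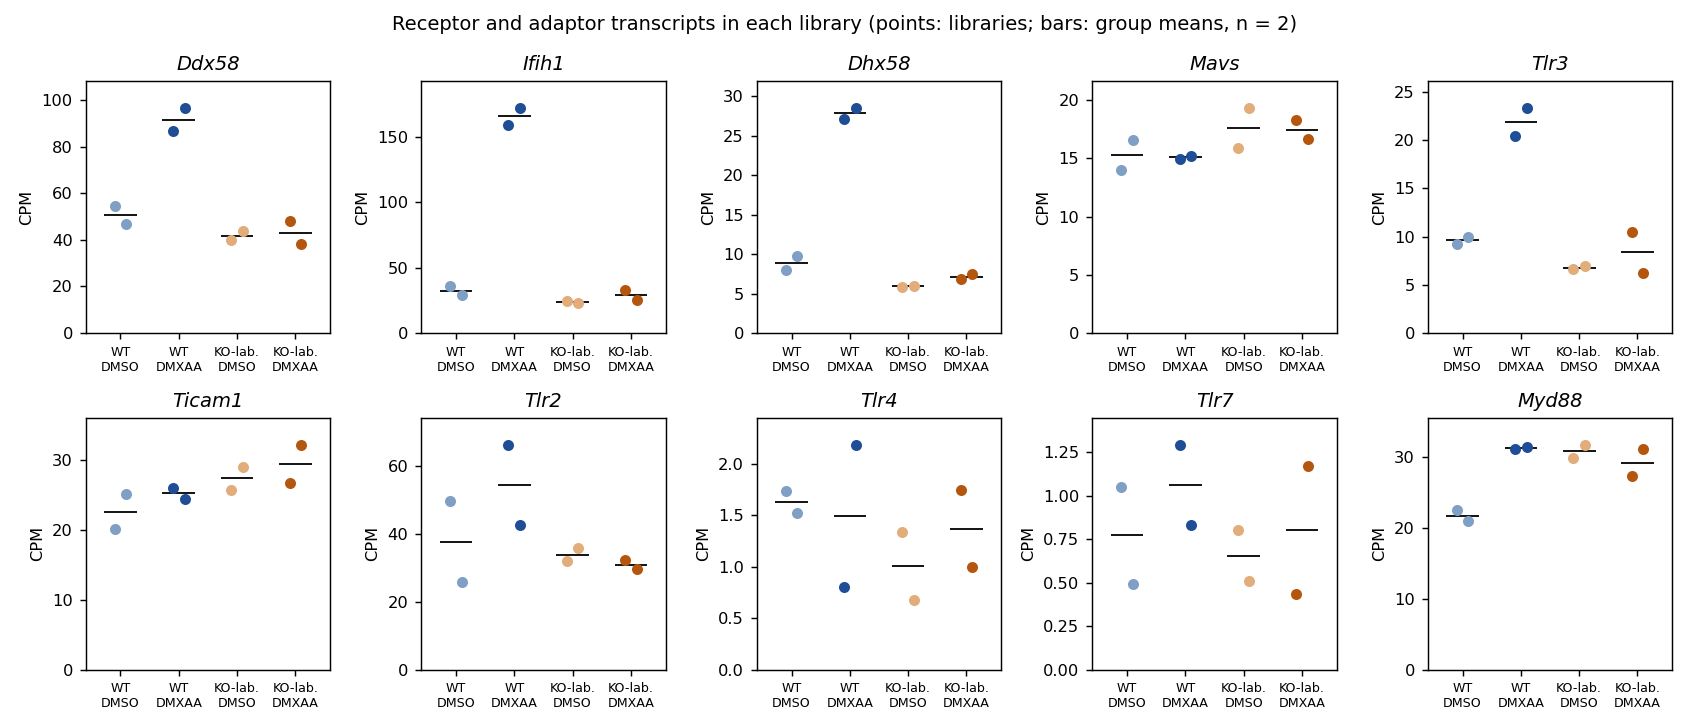
Transcript level in CPM (y axes, from 0) of the 10 genes in each of the 8 libraries, by group (x axes). Points are libraries and bars are means of 2. Ddx58, Ifih1, Dhx58 and Tlr3 have both wild-type DMXAA libraries above the other 6 libraries, while Tlr2, Tlr4 and Tlr7 have libraries of 1 group far apart.

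Mavs, the adaptor shared by RIG-I and MDA5, lies on chromosome 2 from 131234063 to 131248025. In wild type it was at 13.99 and 16.6 CPM under DMSO, and at 14.97 and 15.2 CPM under DMXAA, so the DMXAA values lay within the DMSO pair. Its log2 fold change was -0.02 with a 95% interval of -0.42 to 0.38 (edgeR adjusted p = 0.98).  In KO-labelled islets Mavs was at 15.9 and 19.3 CPM under DMSO, and at 18.3 and 16.6 CPM under DMXAA, again overlapping.

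Tlr3, the endosomal receptor for double-stranded RNA, lies on chromosome 8 from 45395665 to 45411080. Its wild-type levels were 9.26 and 9.94 CPM under DMSO, and 20.4 and 23.3 CPM under DMXAA. Its KO-labelled levels were 6.60 and 6.91 CPM under DMSO, and 10.5 and 6.26 CPM under DMXAA. The wild-type DMXAA pair was the highest of the 8. The rise in wild type was 2.28-fold (log2 fold change 1.19, SE 0.23, edgeR adjusted p = 0.0169). It lost its call without wild-type DMSO replicate 1 (edgeR adjusted p = 0.16), wild-type DMXAA replicate 1 (edgeR adjusted p = 0.0672) or replicate 2 (edgeR adjusted p = 0.185), with log2 fold changes of 1.09 to 1.28 over all 8 fits that left out a library.

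Ticam1 encodes TRIF, the adaptor of TLR3, and lies on chromosome 17 from 56269319 to 56276786. In wild type its level was 20.1 and 25.04 CPM under DMSO, and 25.9 and 24.4 CPM under DMXAA, and these groups overlapped. The log2 fold change was 0.16 with a 95% interval of -0.22 to 0.54 (edgeR adjusted p = 0.741). KO-labelled libraries ranged from 25.7 to 32.1 CPM.

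Tlr2, a surface receptor for bacterial lipoproteins, lies on chromosome 3 from 83836272 to 83841767 and varied most between wild-type libraries of 1 group among the genes above 2 CPM. It was at 49.5 and 25.8 CPM under DMSO, and at 66.2 and 42.7 CPM under DMXAA in wild type, so the groups overlapped. Its log2 fold change of 0.53 (95% interval -0.11 to 1.17, edgeR adjusted p = 0.495) was 1.09 without wild-type DMSO replicate 1, 0.82 without wild-type DMXAA replicate 2, 0.18 without wild-type DMXAA replicate 1 and 0.14 without wild-type DMSO replicate 2, and it passed the test in none of the 8 fits without a library. In wild type the acinar marker sum, in replicate order, was 6250 and 1284 CPM under DMSO and 1444 and 2703 CPM under DMXAA. Under DMXAA it was thus higher in the library where Tlr2 was lower. The macrophage sum was 115 and 81.3 CPM under DMSO and 73.1 and 70.3 CPM under DMXAA. The endothelial sum was 729 and 921 CPM and 579 and 608 CPM. The part of any of these cells in the Tlr2 values was not tested. The KO-labelled libraries lay closer together, at 31.9 and 35.8 CPM under DMSO, and at 32.2 and 29.6 CPM under DMXAA.

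Tlr4, the receptor for lipopolysaccharide, and Tlr7, an endosomal receptor for single-stranded RNA, had few reads. Tlr4, on chromosome 4 from 66827584 to 66930284, was counted 33 and 31 times under DMSO and 15 and 42 times under DMXAA in wild type, and 20 and 12 times under DMSO and 36 and 17 times under DMXAA in KO-labelled islets. Tlr7, on chromosome X from 167304929 to 167330558, was counted 20 and 10 times under DMSO and 24 and 16 times under DMXAA in wild type, and 12 and 9 times under DMSO and 9 and 20 times under DMXAA in KO-labelled islets. For both genes the treated and untreated libraries overlapped within each label. No difference was detectable at this depth in wild type, where the 95% intervals of the log2 fold change ran from -1.19 to 0.96 for Tlr4 and from -0.79 to 1.73 for Tlr7.

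Myd88, the adaptor of most Toll-like receptors and of the interleukin-1 receptor, lies on chromosome 9 from 119335934 to 119341411. Wild type had 22.5 and 20.96 CPM under DMSO, and 31.1 and 31.4 CPM under DMXAA. The groups did not overlap, yet the gene did not pass the test (log2 fold change 0.53, SE 0.16, 95% interval 0.19 to 0.86, edgeR adjusted p = 0.201). The KO-labelled libraries were near the wild-type DMXAA level under both treatments, at 29.9 and 31.7 CPM under DMSO, and at 27.3 and 31.1 CPM under DMXAA. The wild-type DMSO pair was thus the lowest of the 8. Its exons share 290 bases with Acaa1a on the other strand, which had 1639 to 2331 counts per library, and reads of the pair in those bases cannot be told apart without strand.

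Levels of different genes were compared per kilobase of exon, with all annotated exons of a gene merged. This length need not be that of the transcripts present, and the order depends on it. By mean CPM in wild-type DMSO islets, Ddx58 (50.8) stood above Tlr2 (37.7), and Ifih1 (32.2) above Ticam1 (22.6) and Myd88 (21.7). In wild-type DMSO islets Tlr2 had the highest mean (12.5 CPM per kb), followed by Myd88 (8.44), Ticam1 (7.54), Ddx58 (7.20), Mavs (4.57), Ifih1 (3.94), Dhx58 (2.72), Tlr3 (1.84), Tlr4 (0.293) and Tlr7 (0.189). The libraries of neighbours in this order overlapped from Tlr2 down to Ddx58 and between Mavs and Ifih1, and the other neighbours were apart. With DMXAA in wild type, Ifih1 was first (20.3 CPM per kb), although its libraries overlapped those of Tlr2 (18.1), and Ddx58 (13.01) and Myd88 (12.1) followed. Dhx58 (8.50) then overlapped Ticam1 (8.41), and Mavs (4.51) overlapped Tlr3 (4.20).

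The proportions within the RIG-I-like receptors changed with their sum. Their 3 transcripts summed to 14.6 and 13.2 CPM per kb in wild-type DMSO libraries and to 40.1 and 43.5 with DMXAA. The ratio of Ifih1 to Ddx58 per kb in wild type was 0.563 and 0.529 under DMSO, and 1.58 and 1.54 under DMXAA, so the more abundant of these transcripts was Ddx58 in the first group and Ifih1 in the second. In the KO-labelled libraries the ratio stayed between 0.454 and 0.588 under both treatments. Ifih1 made up 28.3% ± 2.26 of the sum in wild type under DMSO, and 48.5% ± 0.127 under DMXAA (SD, n = 2). Among the 4 Toll-like receptors, Tlr2 made up between 73.6% and 88.3% of the sum per kb in all 8 libraries.

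**Figure D2:**
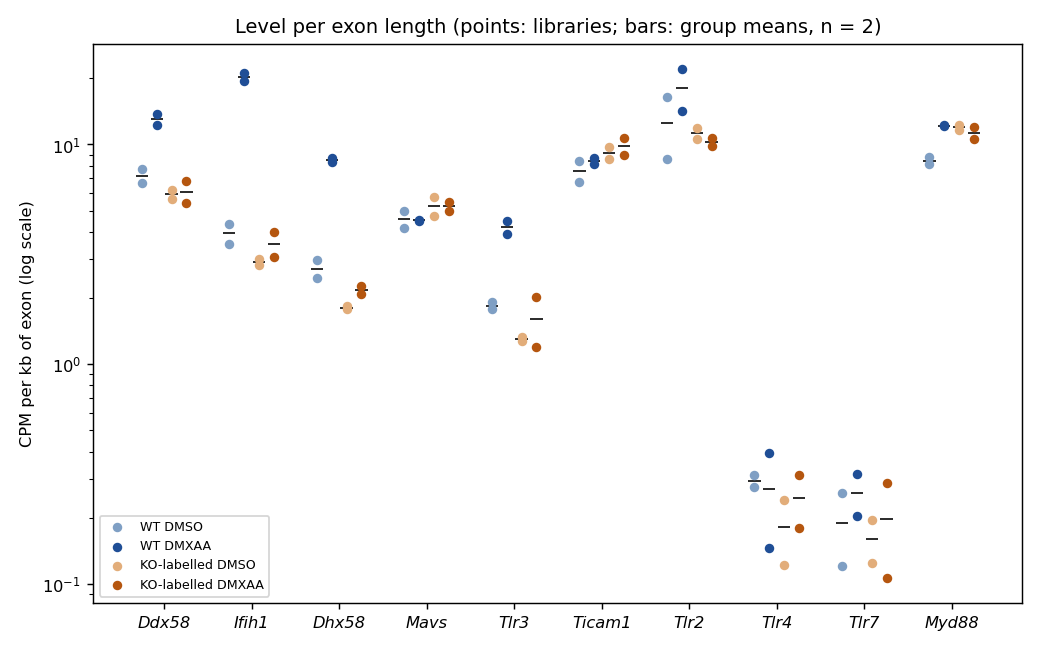
Level per kilobase of exon (y axis, CPM per kb, log scale) of the 10 genes (x axis) in the 8 libraries, coloured by group, with bars at the means of 2. Ifih1 lies below Ddx58 in every group except wild-type DMXAA, where it lies above it, and Tlr4 and Tlr7 lie below the other genes in every library.

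In KO-labelled islets none of the 10 genes passed the test with DMXAA. The count was 0 of 10 by edgeR, against 0.375% of all genes (0.164% higher, 0.211% lower), and 0 with DESeq2 or with limma-voom. It was also 0 at an unadjusted p under 0.05, beside 1245 of all 17055 genes. The log2 fold change was 0.04 for Ddx58 (95% interval -0.31 to 0.39), 0.28 for Ifih1 (-0.09 to 0.65), 0.27 for Dhx58 (-0.20 to 0.74) and 0.32 for Tlr3 (-0.23 to 0.87). These intervals lie below the wild-type estimates of the same genes, but those estimates carry error of their own. For Tlr3 the wild-type interval (0.69 to 1.69) overlaps the KO-labelled one. Libraries did not overlap for Ifih1 and Dhx58, both slightly higher with DMXAA, a pattern that 18.1% of all genes showed as higher and 17.7% as lower in this comparison (35.8% together). For Mavs, Ticam1, Tlr2 and Myd88 the log2 fold changes lay between -0.13 and 0.10, and for Tlr4 and Tlr7 they were 0.50 and 0.26 with wide intervals.

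The difference between the DMXAA effects was then tested directly. It passed the test for 2 of the 10 genes, both with a smaller effect in KO-labelled islets, against 0.528% of all genes in that direction, 0.668% in the other and 1.2% in both. The difference (KO-labelled minus wild type) was -2.08 on the log2 scale for Ifih1 (SE 0.24, edgeR adjusted p = 0.000526) and -1.37 for Dhx58 (SE 0.29, edgeR adjusted p = 0.033). Ifih1 kept its call in all 8 fits that left out a library. Dhx58 lost it in 6 of them, with edgeR adjusted p = 0.0863 without wild-type DMSO replicate 1, 0.151 and 0.154 without wild-type DMXAA replicate 1 or 2, 0.164 and 0.235 without KO-labelled DMSO replicate 1 or 2 and 0.083 without KO-labelled DMXAA replicate 1, while the difference itself stayed between -1.52 and -1.26.

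For Ddx58 and Tlr3, called in wild type alone, the difference did not pass the test. It was -0.81 for Ddx58 (95% interval -1.30 to -0.32, edgeR adjusted p = 0.163) and -0.87 for Tlr3 (95% interval -1.61 to -0.12, edgeR adjusted p = 0.456). For Myd88 it was -0.60 (95% interval -1.08 to -0.13, edgeR adjusted p = 0.38), where the higher DMSO level of the KO-labelled libraries enters as well. The adaptors Mavs and Ticam1 had differences of 0.01 (95% interval -0.56 to 0.58) and -0.05 (95% interval -0.59 to 0.48).

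**Figure D3:**
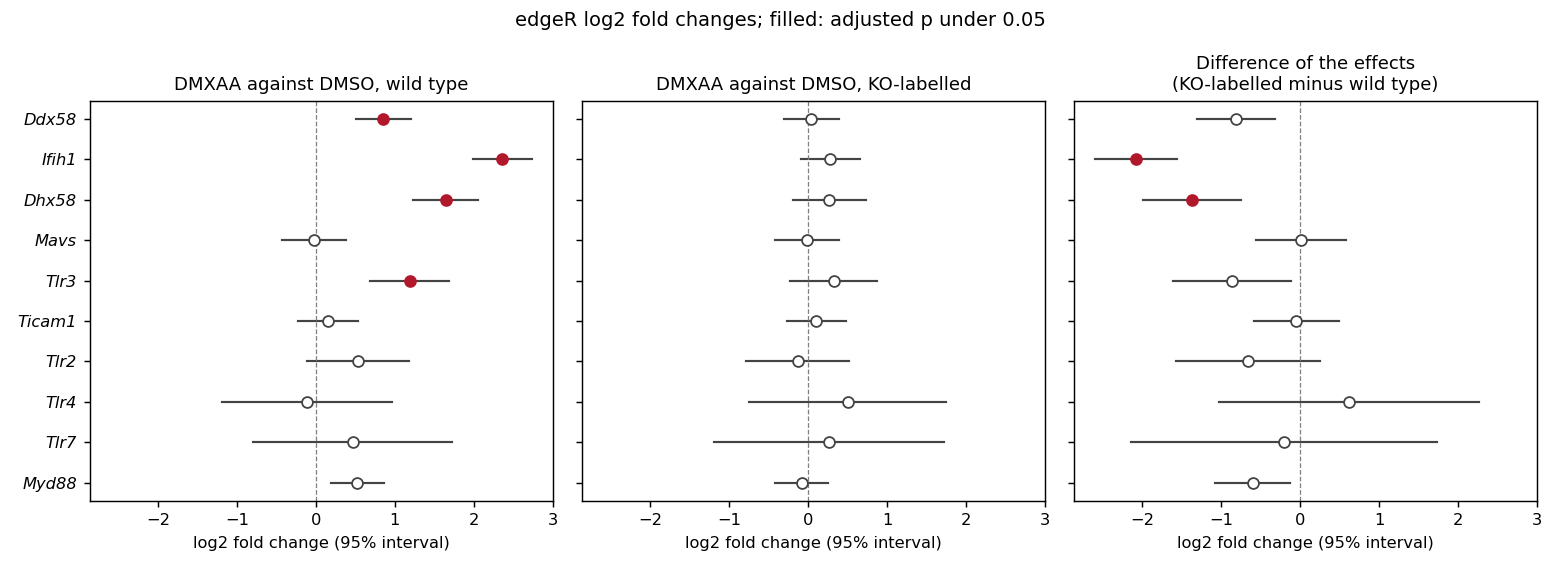
Log2 fold changes (x axes) with 95% intervals for the 10 genes (y axis) with DMXAA in wild-type islets, with DMXAA in KO-labelled islets, and for the difference of the effects. Filled points have an edgeR adjusted p under 0.05: Ddx58, Ifih1, Dhx58 and Tlr3 on the left, no gene in the middle, and Ifih1 and Dhx58 on the right.

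The genotype labels were also compared under each treatment. These comparisons share libraries with those above, so their values are not separate support. With DMXAA, 4 of the 10 genes were lower in KO-labelled than in wild-type islets, against 1.37% of all genes lower, 1.02% higher and 2.39% in both directions. The groups did not overlap for 8 of the 10 genes, nor for 44.4% of all genes (23.3% higher, 21% lower). The log2 difference was -2.51 for Ifih1 (SE 0.17, edgeR adjusted p = 1.76e-06), -1.97 for Dhx58 (SE 0.20, edgeR adjusted p = 5.4e-05), -1.37 for Tlr3 (SE 0.24, edgeR adjusted p = 0.00498) and -1.09 for Ddx58 (SE 0.16, edgeR adjusted p = 0.0016). Tlr3 lost this call without wild-type DMXAA replicate 2 (edgeR adjusted p = 0.0533). Tlr2 was at -0.82 (edgeR adjusted p = 0.246) and passed the test only without wild-type DMSO replicate 1 (edgeR adjusted p = 0.0388) or replicate 2 (edgeR adjusted p = 0.0419).

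With DMSO alone, 0 of the 10 genes passed the edgeR test, against 0.223% of all genes (0.182% higher, 0.041% lower), and 0 did so with DESeq2 or limma-voom. At an unadjusted p under 0.05 there were 3 of the 10, beside 2092 of all 17055 genes. They were Ifih1 at -0.43 and Dhx58 at -0.59 on the log2 scale, lower in KO-labelled islets, and Myd88 at 0.50, higher there. Libraries did not overlap between the labels for 7 of the 10 genes, nor for 46.7% of all genes (24.3% higher, 22.4% lower). The edgeR adjusted p was 0.343 for Ifih1, 0.307 for Dhx58 and 0.251 for Myd88.

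Other genes of the pathways were taken from 3 lists. Among 30 genes that act with the RIG-I-like receptors, 2 rose with DMXAA in wild type, 0 fell and 28 did not pass the test, beside 1.11% higher and 0.375% lower of all genes. Irf7, the transcription factor that amplifies interferon expression, was at 23.7 and 31.7 CPM with DMSO and at 67.3 and 92.4 CPM with DMXAA in wild type (log2 fold change 1.53, SE 0.21, edgeR adjusted p = 0.00128). Trim25, a ubiquitin ligase of the RIG-I route, was at 98.3 and 96.7 CPM and at 169 and 171 CPM (log2 fold change 0.80, SE 0.13, edgeR adjusted p = 0.00514), which no longer passed without wild-type DMXAA replicate 1 (edgeR adjusted p = 0.0746) or replicate 2 (edgeR adjusted p = 0.0845). The list median was 0.12, beside -0.000659 for all genes. In KO-labelled islets 0 of the 30 passed the edgeR test with DMXAA, beside 0.375% of all genes, and 0 by DESeq2 or limma-voom. At an unadjusted p under 0.05 there were 2 of the 30, beside 1245 of all 17055 genes. They were Irf7 (higher) and Ikbke (lower, log2 fold change -0.44, edgeR adjusted p = 0.666). Irf7 was at 25.3 and 17.5 CPM with DMSO and at 30.7 and 34.4 CPM with DMXAA in these islets. Its groups did not overlap, with a log2 fold change of 0.61 (edgeR adjusted p = 0.472). Its difference of DMXAA effects (KO-labelled minus wild type) was -0.92 and did not pass the test (SE 0.30, edgeR adjusted p = 0.295). For the difference of the DMXAA effects the edgeR count was 0 as well, beside 1.2% of all genes, and 0 by DESeq2 or limma-voom. At an unadjusted p under 0.05 there were 6 of the 30, beside 1485 of all 17055 genes.

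Of the other receptors and co-receptors of the Toll-like family, 17 were listed and 15 tested. With a threshold of 0.05, 0 passed the edgeR test with DMXAA in wild type, beside 1.48% of all genes, and 0 by DESeq2 or limma-voom (median -0.07). At an unadjusted p under 0.05 there were 5, beside 2025 of all 17055 genes. Named after the values were seen, they were Tlr1, Tlr13 and Cd36 (lower) and Cd14 and Cnpy3 (higher). In KO-labelled islets the count was 0 by the 3 tools and at the unadjusted threshold, beside 0.375% (edgeR) and 1245 (unadjusted) of all genes. Of the 25 signalling genes, 24 were tested and 2 rose in wild type, beside the same 1.11% of all genes. These were Tnfaip3 and Nfkbia, whose proteins restrain NF-kB. Tnfaip3 was at 15.3 and 14.4 CPM with DMSO and at 76.9 and 63.3 CPM with DMXAA, and Nfkbia at 47.3 and 50.7 CPM and at 164 and 137 CPM. In KO-labelled islets Tnfaip3 was at 19.1 and 21.5 CPM under DMSO and at 16.8 and 12.7 CPM under DMXAA, and Nfkbia at 83.3 and 84.6 CPM and at 76.8 and 73.4 CPM. Nfkbia thus lay above its wild-type level already under DMSO (log2 difference 0.78, unadjusted p = 0.00013, edgeR adjusted p = 0.053), which enters its difference of effects. The differences of the DMXAA effects (KO-labelled minus wild type) were -2.70 (SE 0.26, edgeR adjusted p = 0.000132) and -1.78 (SE 0.21, edgeR adjusted p = 0.000526), and both kept their calls in all 8 fits that left out a library. The remaining 22, among them the genes of the IRAK kinases and TRAF6, did not pass the test, and the list median was -0.08. At an unadjusted p under 0.05 there were 6 in wild type, beside 2025 of all 17055 genes. Besides Tnfaip3 and Nfkbia they were Traf6, Map3k7, Tab2 and Chuk, all lower (log2 fold changes -0.38, -0.39, -0.39 and -0.40). In KO-labelled islets 0 passed by edgeR, DESeq2 or limma-voom, beside 0.375% of all genes by edgeR. At the unadjusted threshold there were 3, beside 1245 of all genes.

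**Figure D4:**
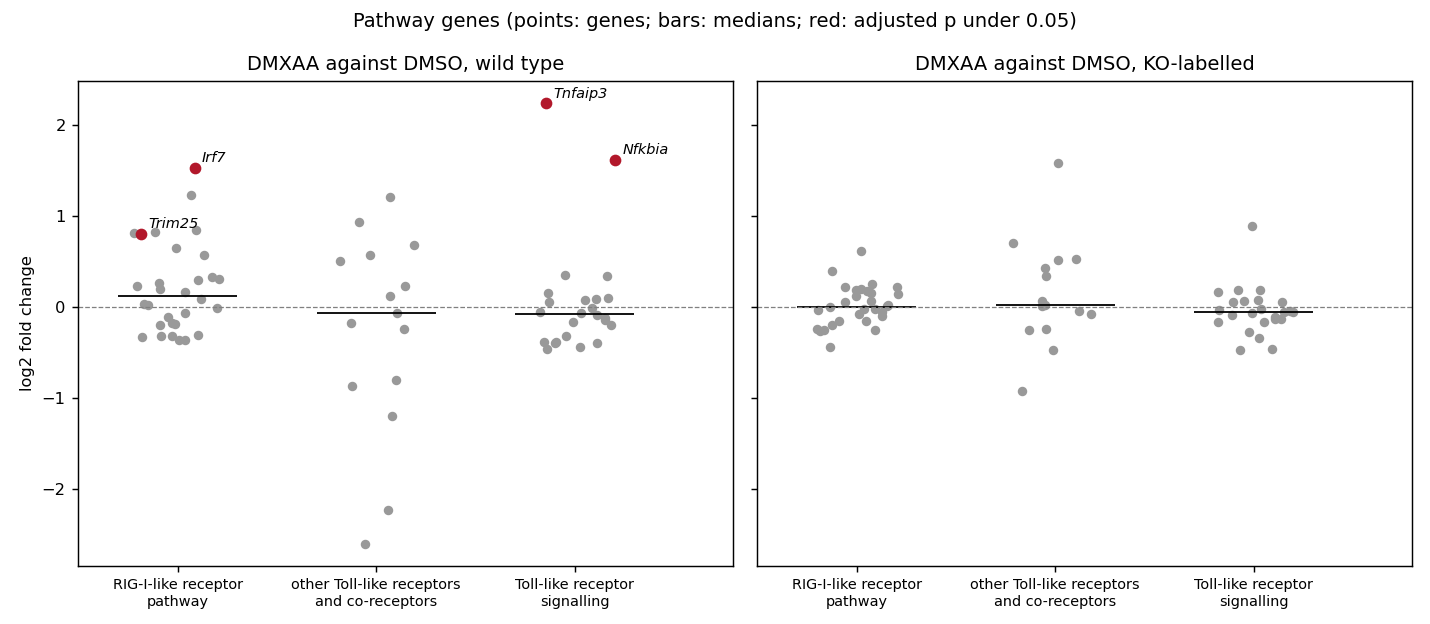
Log2 fold change with DMXAA (y axis) of the tested genes of 3 pathway lists (x axis) in wild-type and in KO-labelled islets. Points are genes, bars are list medians and red points have an edgeR adjusted p under 0.05, which are Irf7, Trim25, Tnfaip3 and Nfkbia in wild type and no gene in KO-labelled islets.

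Between the labels under DMXAA, 4 of the 30 genes of the RIG-I-like list were lower in KO-labelled islets, beside 1.37% of all genes. They were Irf7 at -1.30 and Trim25 at -0.79, and Ddx60, a helicase gene, at -1.44 and Eif2ak2, the gene of the RNA-activated kinase PKR, at -1.03. Without wild-type DMXAA replicate 2 none of these passed, with edgeR adjusted p = 0.0548, 0.0597, 0.0524 and 0.19 in that order, and Trim25 was also lost without wild-type DMXAA replicate 1 (edgeR adjusted p = 0.0693) and Eif2ak2 without KO-labelled DMXAA replicate 2 (edgeR adjusted p = 0.141). Ddx60 was at 22.3 and 20.1 CPM in wild type and at 9.34 and 11.6 CPM in KO-labelled islets under DMSO already (log2 difference -1.01, edgeR adjusted p = 0.151), and its difference of DMXAA effects was -0.43 (edgeR adjusted p = 0.775). Ddx60 and Eif2ak2 were named after the values were seen, as were the receptor genes that follow. Tlr13, a receptor for bacterial ribosomal RNA, was higher by 2.55 in KO-labelled islets (SE 0.54, edgeR adjusted p = 0.0228), with 16 and 2 counts in wild-type DMXAA and 59 and 48 in KO-labelled DMXAA libraries. Under DMSO its counts were 48 and 41 in wild type and 24 and 33 in KO-labelled libraries. With DMXAA its log2 fold change was -2.23 in wild type (edgeR adjusted p = 0.0863) and 0.70 in KO-labelled islets (edgeR adjusted p = 0.821). The label difference under DMXAA was 4.68 without wild-type DMXAA replicate 1 and 1.71 without replicate 2. Its call was lost without wild-type DMXAA replicate 2 (edgeR adjusted p = 0.204), without KO-labelled DMSO replicate 1 (0.0523) or 2 (0.0537), and without KO-labelled DMXAA replicate 1 (0.0585) or 2 (0.0975). Cd36, a scavenger receptor that works with TLR2, was higher by 1.56 (SE 0.27, edgeR adjusted p = 0.00502). Its call was lost without replicate 2 of wild-type DMXAA or of KO-labelled DMXAA. The log2 difference ranged from 1.27 to 1.92 over the 8 fits that left out a library. Cd36 was at 16.9 and 10.5 CPM under DMSO and at 9.15 and 5.83 CPM under DMXAA in wild type. In KO-labelled islets it was at 14.4 and 18.2 CPM and at 20.7 and 23.3 CPM.

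Marker transcripts of cells that carry these receptors differed between groups. The 14 macrophage markers summed to 115 and 81.3 CPM under DMSO and 73.1 and 70.3 under DMXAA in wild type, 101 and 102 in KO-labelled DMSO and 93.8 and 177 in KO-labelled DMXAA libraries. At least 13 of the 14 had counts in every library, with Cd163 at 0 in 3 KO-labelled libraries. The 12 endothelial markers, all counted in every library, summed to 729 and 921 CPM under DMSO and 579 and 608 under DMXAA in wild type, 669 and 719 in KO-labelled DMSO and 1078 and 1122 in KO-labelled DMXAA libraries. Both sums were lower with DMXAA in wild type, where Ddx58, Ifih1, Dhx58 and Tlr3 rose. Of the macrophage markers, Lyz2 alone went from 38.2 and 12.2 CPM to 6.46 and 5.67 CPM there, and the sums without it, taken after the values were seen, were 76.95 and 69.1 CPM under DMSO and 66.6 and 64.6 CPM under DMXAA. Of the 13 macrophage markers tested in wild type, 5 had a positive log2 fold change, and 0 passed by edgeR, DESeq2 or limma-voom. At an unadjusted p under 0.05 there were 4, beside 2025 of all 17055 genes. Of the 12 endothelial markers, 3 fell by the edgeR test, beside 0.375% lower of all genes.

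Dendritic cell markers, 7 genes, were sparse, with 4 or 5 counted per library and Cd209a at 0 in all 8. Their sum was 10.1 to 11.7 CPM under DMSO and 6.08 to 6.24 under DMXAA in wild type, 7.19 to 8.40 in KO-labelled DMSO and 10.6 to 11.6 in KO-labelled DMXAA libraries. Most of it was Itgax, at 8.21 and 7.18 CPM under DMSO and 2.96 and 3.38 CPM under DMXAA in wild type, and at 8.62 and 8.31 CPM in KO-labelled DMXAA libraries. Without Itgax, again taken after the values were seen, the sums under DMXAA were 3.12 and 2.86 CPM in wild type and 3.002 and 2.28 CPM in KO-labelled islets. The 8 B cell markers summed to 38.1 and 39.0 CPM in the KO-labelled DMSO libraries, where Tlr7, which B cells also express, had 12 and 9 counts. In the other 6 libraries they summed to at most 10.9 CPM. Under DMXAA the macrophage and endothelial sums were higher in KO-labelled than in wild-type libraries, as Tlr13 and Cd36 were. By the edgeR test 7 of the 12 endothelial and 1 of the 13 tested macrophage markers were higher there, beside 1.02% of all genes. The acinar sum was lower, at 386 and 333 CPM in KO-labelled against 1444 and 2703 CPM in wild-type DMXAA libraries, as Ifih1, Dhx58, Tlr3 and Ddx58 were. These genes were also below their wild-type DMXAA levels in both DMSO groups. The acinar sum there was 1467 and 2194 CPM in KO-labelled and 6250 and 1284 CPM in wild-type libraries. Of the 12 acinar markers, 0 passed the edgeR test between the labels under DMXAA, with 8 by DESeq2 and 0 by limma-voom. At an unadjusted p under 0.05 there were 8, beside 2216 of all 17055 genes. The part of any of these cells in the gene levels was not tested.

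**Figure D5:**
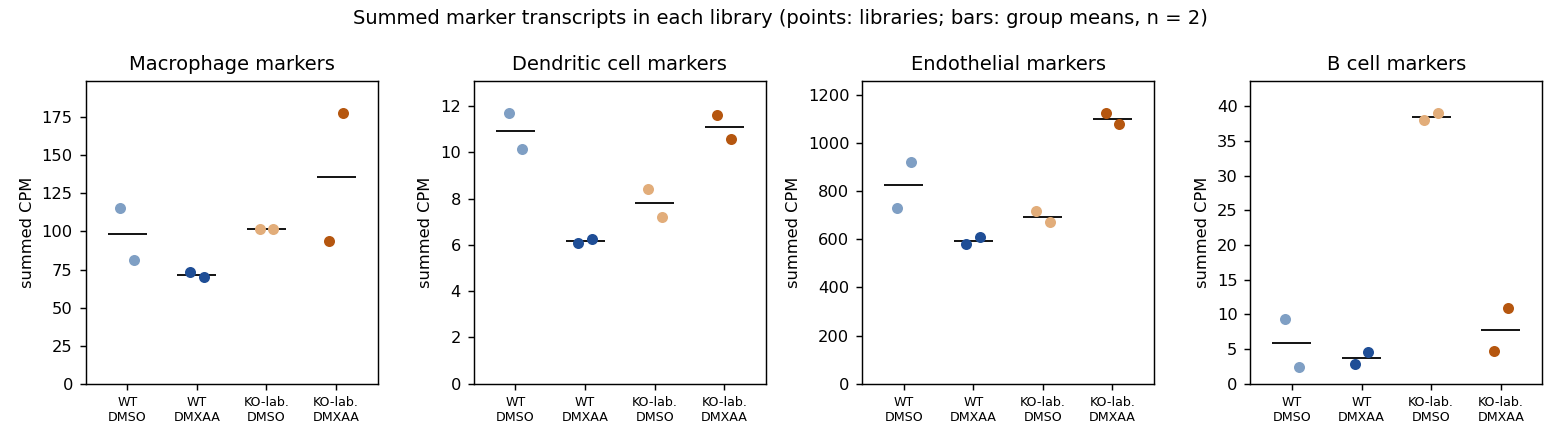
Summed CPM (y axes, from 0) of macrophage, dendritic cell, endothelial and B cell markers in each library by group (x axes), with bars at the means of 2. Macrophage, dendritic and endothelial sums are lowest in the wild-type DMXAA libraries, and the B cell sum is highest in the KO-labelled DMSO libraries.

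Profiles over the 8 libraries were also compared gene by gene. Likeness was the root mean square difference of log2 CPM after each gene was centred on its own mean, among 14413 candidate genes (14414 for Tlr7) with a symbol and a mean of at least 1 CPM. For Ifih1 the nearest genes were Cd274, Oasl2 and Rtp4, at 0.15, 0.18 and 0.19 log2 units, where Ifih1 itself varied by 1.13 around its mean. For Dhx58 they were Tnfsf10, Irgm2 and Adcy4, at 0.20, 0.21 and 0.21. For Ddx58 they were Zfp85, Arrdc4 and Eif2ak2, at 0.10, 0.12 and 0.13, and for Tlr3 they were Uba7, Crim1 and Mlkl, at 0.10, 0.15 and 0.19. Among pairs of the 10 genes themselves, Mavs and Ticam1 were nearest at 0.13, followed by Myd88 and Ticam1 at 0.18, Mavs and Myd88 at 0.23 and Ddx58 and Tlr3 at 0.23. Genes that vary little lie close to each other by this measure.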

How the data were processed

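The authors deposited 1 file of raw read counts per Ensembl gene for each of the 8 libraries. HISAT2, HTSeq and the build mm10 are named, without versions, in the submitters' processing notes. The annotation release and strand setting were not given in the sources used here. Symbols were taken from a table of gene names that matched 54409 of 54532 identifiers, and coordinates from GENCODE M21, on the mm10 assembly. Counts were analysed with edgeR 4.0.16 in R 4.3.3 after filterByExpr (17055 genes kept) and TMM scaling. CPM was computed from the deposited counts with scaled library sizes. All 8 libraries entered 1 fit with a mean for each group (4 residual degrees of freedom) and robust quasi-likelihood F-tests, and p-values were adjusted by Benjamini-Hochberg over all genes. SE is the absolute log2 fold change over the square root of F. Replicates differed by more than sampling noise. Chi-square per degree of freedom was 39.6 in wild-type DMSO, 12.8 in wild-type DMXAA, 7.41 in KO-labelled DMSO and 59.8 in KO-labelled DMXAA libraries. The groups shared 1 dispersion estimate in the fit. The steps were run on simulated data with the same dispersion in all groups, which cannot show how calls hold under the unequal noise here. DESeq2 1.42.0, limma 3.58.1 (voom) and other settings were alternatives. Of listed genes, those called in wild type or in the difference, up to the 6 smallest p per list and comparison, are named. The likeness profiles used log2 CPM with a prior count of 2. The members, lists and tests were chosen with earlier results of these data known.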

Additional observations from a re-analysis of the deposited data

Results flagged for a closer look

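For 2 genes the effect of DMXAA differed between wild-type and KO-labelled islets by the direct test of the difference. It was -2.08 on the log2 scale for Ifih1 (KO-labelled minus wild type, edgeR adjusted p = 0.000526), where both wild-type DMXAA libraries were above both DMSO libraries, as were the KO-labelled ones by a smaller margin. For Dhx58 it was -1.37 (edgeR adjusted p = 0.033), with the same ordering of libraries, and this call was lost in 6 of the 8 fits that left out a library (edgeR adjusted p from 0.083 to 0.235).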

How the results depend on the processing

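With 2 libraries a group, single libraries decide several calls. Under 8 other settings, 377 of 380 values of the 10 genes kept direction and side of the threshold, and the numbers of the 10 genes called did not change. The exceptions lie near 0: the difference of effects for Mavs was -0.0020 with no low-count filter and -0.0037 with a minimum count of 50, and the label difference of Tlr4 under DMXAA was 0.0074 with limma-voom. With a library left out, 358 of 400 values did so, 12 lost and 2 gained a call and 28 reversed, none of the 28 over 0.449 in size as reported. The cause was not tested. Tlr4 and Tlr7 drop out at a minimum count of 50, and the difference of effects has no fit on 4 libraries. The replicate block kept 4, 0, 2, 0 and 4 of the 10 genes called (wild-type DMXAA, KO-labelled DMXAA, difference, labels under DMSO, labels under DMXAA) and called 259, 61, 217, 56 and 417 of all genes. Replicate numbers showed no sign of pairing the libraries (correlations of deviations -0.139 to 0.116), though a weak shared effect could be missed this way. Of all genes, the 64 called in KO-labelled islets became 149 with DESeq2, 0 with limma-voom, 177 with no filter, 11 with a minimum count of 50, 29 with the older fit and 129 on 4 libraries. The 38 called between labels under DMSO became 152, 18, 159, 8, 17 and 25 in the same order. DESeq2 called 4 of the 30 genes of the RIG-I-like list in wild type, against 2 by edgeR.

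Leaving out each library in turn, the 10 genes gave 2 to 4 calls for DMXAA in wild type, 0 in KO-labelled islets, 1 to 2 for the difference, 0 between labels under DMSO and 3 to 5 under DMXAA. All genes gave 160 to 994, 3 to 129, 87 to 304, 3 to 240 and 205 to 674. Reversing log2 values ranged, for DMXAA in wild type, from -0.12 to 0.11 for Mavs and -1.004 to 0.42 for Tlr4. In KO-labelled islets they ranged from -0.13 to 0.21 for Ddx58, -0.14 to 0.14 for Mavs, -0.11 to 0.66 for Tlr3, -0.54 to 0.86 for Tlr7, -0.16 to 0.018 for Myd88 and -0.014 to 0.24 for Ticam1. For the difference they ranged from -0.13 to 0.15 for Mavs, -1.02 to 0.39 for Tlr7 and -0.22 to 0.083 for Ticam1. Between labels they ranged under DMSO from -0.55 to 0.38 for Tlr2 and -0.70 to 0.37 for Tlr7, and under DMXAA from -0.65 to 0.78 for Tlr4 and -1.27 to 0.15 for Tlr7.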
